A study of Mus musculus with 5 samples.

Results

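The genes described here are 10 members of the Sp and Klf family of transcription factors, Sp1, Sp2, Sp3, Sp4, Klf2, Klf4, Klf6, Klf9, Klf10 and Klf15, chosen by name. They are 10 of the 27729 genes in the deposited tables and 10 of the 13346 genes that reached 10 expected counts in at least 1 library (the tested genes), so every member passed the filter on low counts. RNA was sequenced from MEFs, fibroblasts grown out of embryos of the mouse strain ICR. The day 0 library came from MEFs kept in medium with fetal bovine serum. The libraries of days 2, 5, 10 and 14 came from MEFs moved to 5C medium, a serum-free DMEM/F12 medium with the N2 supplement (which holds insulin and transferrin), vitamin C, 2-mercaptoethanol, leukemia inhibitory factor and basic fibroblast growth factor, under which part of the cells take on a neuron-like shape. The question was how gene expression moves during this conversion. All cells were of 1 strain and no library came from serum medium at a later day, so the change of medium and the time in culture cannot be told apart. The labels call the medium 6C, and the treatment text beside them names day 15 where the last library is labelled day 14.

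There was 1 library per day, so no difference between days has a replicate check and no test was made. The expected counts, RSEM's estimates of the reads of each gene, added up to 3890334 in the deepest library (day 0) and 2253748 in the shallowest (day 2), where the top 10 genes took 14.2% of the reads against 6.30% to 8.57% elsewhere. Normalized counts are expected counts brought to a common library size. A change is the log2 ratio of normalized counts to day 0 with a pseudocount of 1, and an interval is the exact 95% interval of the ratio of counts in the libraries compared. With 1 library per day, intervals cover counting error only. The reads carried no molecular identifiers, so copies of 1 molecule cannot be told from separate molecules and the intervals can be too narrow. Because the RNA came from whole cultures, fewer cells of a type and less RNA per cell cannot be told apart. The fibroblast markers, led by Vim, summed to between 74062 and 116453 normalized counts in the 5 libraries, with no marker at 0 throughout. The sum hides opposite changes, since on day 10, 3 of the 10 markers were over 2-fold above day 0 and 3 below. Of all tested genes 28.7% were above and 22.3% below on that day.

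Sp and Klf factors share a block of C2H2 zinc fingers near the end of the protein, through which they bind GC boxes and the related CACCC boxes of promoters and enhancers. Sp factors are widely made activators of promoters rich in GC boxes, whereas Klf factors are more often tied to 1 tissue or signal and include both activators and repressors. In fibroblasts several Klf genes are known to answer serum, growth factors, TGF-beta or steroid hormones within hours.

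Members of the family can bind the promoters of their own family, so the promoters were searched for both boxes. Of the 10 members, 9 had a RefSeq promoter window of 300 bases (250 before and 50 after the start site, GRCm38), and Klf10 had none. Among these 9 windows, 7 held the GC box GGGCGG on either strand, against 35.7% of the 32851 windows of all genes. The box CACCC was found in 6 of the 9 windows on either strand, against 57.5% of all windows. In 3 windows, those of Sp1, Sp4 and Klf4, the GC box occurred 3 or more times, against 10.7% of all windows. The GC content of the 9 windows ran from 53.3% to 78.7%, and its median over all windows was 52.7%. The GC box is itself made of G and C, and its count was not adjusted for base composition. A match is a description of the letters, not a binding site. The 250 bases before the start site are shown for the pair of Sp genes that changed most and for the pair of Klf genes that fell most on day 10, with the GC boxes of either strand in capitals. They lie at chr2:72980447-72980696 on the minus strand, chr12:118301441-118301690 on the minus strand, chr8:72318812-72319061 on the plus strand and chr13:5861239-5861488 on the plus strand, written 5′ to 3′.
Sp3: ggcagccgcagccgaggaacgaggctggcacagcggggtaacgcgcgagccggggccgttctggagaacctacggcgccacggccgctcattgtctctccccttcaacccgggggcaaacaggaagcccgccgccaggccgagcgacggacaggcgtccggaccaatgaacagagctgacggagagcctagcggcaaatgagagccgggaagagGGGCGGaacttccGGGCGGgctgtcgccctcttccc
Sp4: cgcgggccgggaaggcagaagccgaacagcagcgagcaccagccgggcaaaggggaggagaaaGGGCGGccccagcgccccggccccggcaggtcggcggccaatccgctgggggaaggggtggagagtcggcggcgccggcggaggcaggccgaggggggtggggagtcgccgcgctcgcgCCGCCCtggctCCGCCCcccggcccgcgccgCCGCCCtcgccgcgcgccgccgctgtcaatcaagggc
Klf2: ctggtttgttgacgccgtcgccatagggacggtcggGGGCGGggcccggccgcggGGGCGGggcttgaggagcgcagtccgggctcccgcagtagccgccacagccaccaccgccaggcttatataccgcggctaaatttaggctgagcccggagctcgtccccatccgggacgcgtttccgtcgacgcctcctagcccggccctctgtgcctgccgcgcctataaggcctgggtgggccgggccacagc
Klf6: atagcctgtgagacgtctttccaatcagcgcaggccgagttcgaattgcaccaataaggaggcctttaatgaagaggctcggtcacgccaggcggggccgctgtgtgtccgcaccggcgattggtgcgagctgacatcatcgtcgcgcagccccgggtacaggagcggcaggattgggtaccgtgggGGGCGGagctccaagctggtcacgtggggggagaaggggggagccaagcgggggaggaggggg
Before the start site Sp3 and Klf2 held 2 boxes each, Sp4 held 4 and Klf6 held 1. Thus genes that rose and genes that fell both held the box. The windows of Sp2 and Klf9 held no GC box, and that of Sp2 held 3 CACCC boxes. These counts are for the window nearest the annotated gene start, and RefSeq has further start sites for Sp2 and Sp3. A second window of Sp2 (chr11:96977639-96977938) held 2 GC boxes and 1 CACCC box, and a second window of Sp3 (chr2:72979232-72979531) held 5 GC boxes.

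The 4 Sp members moved up together and the 6 Klf members did not. This split describes the chosen members. Of the 8 other Klf genes tested, 4 were over 2-fold above day 0 on day 10 and 0 below. On day 10 all 4 Sp genes were over 2-fold above day 0, as were 28.7% of all tested genes, with log2 changes from 1.27 to 2.74, and each of them had its highest level of the 5 days. For Sp2 and Sp4 the change from day 10 to day 14 was not beyond counting error, at -0.20 (-0.61 to 0.20) and -0.68 (-1.51 to 0.06). Of the 6 Klf genes on day 10, 1 was over 2-fold above day 0 (Klf15), 2 were over 2-fold below (Klf2 and Klf6, against 22.3% of all tested genes) and 3 were within 2-fold. Klf2 had the largest change of any member, a fall of 12.7-fold from day 0 to day 10. The changes of all 4 Sp genes on days 5, 10 and 14 were above 0 under every scaling tried. Taken relative to genes of like length, however, 2 rather than 4 of them were over 2-fold above on day 10 and 1 rather than 3 on day 14. There Sp1 was at only 0.24, 0.22 and 0.10 on days 5, 10 and 14, values that measure distance from genes of like length.

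**Figure D1:**
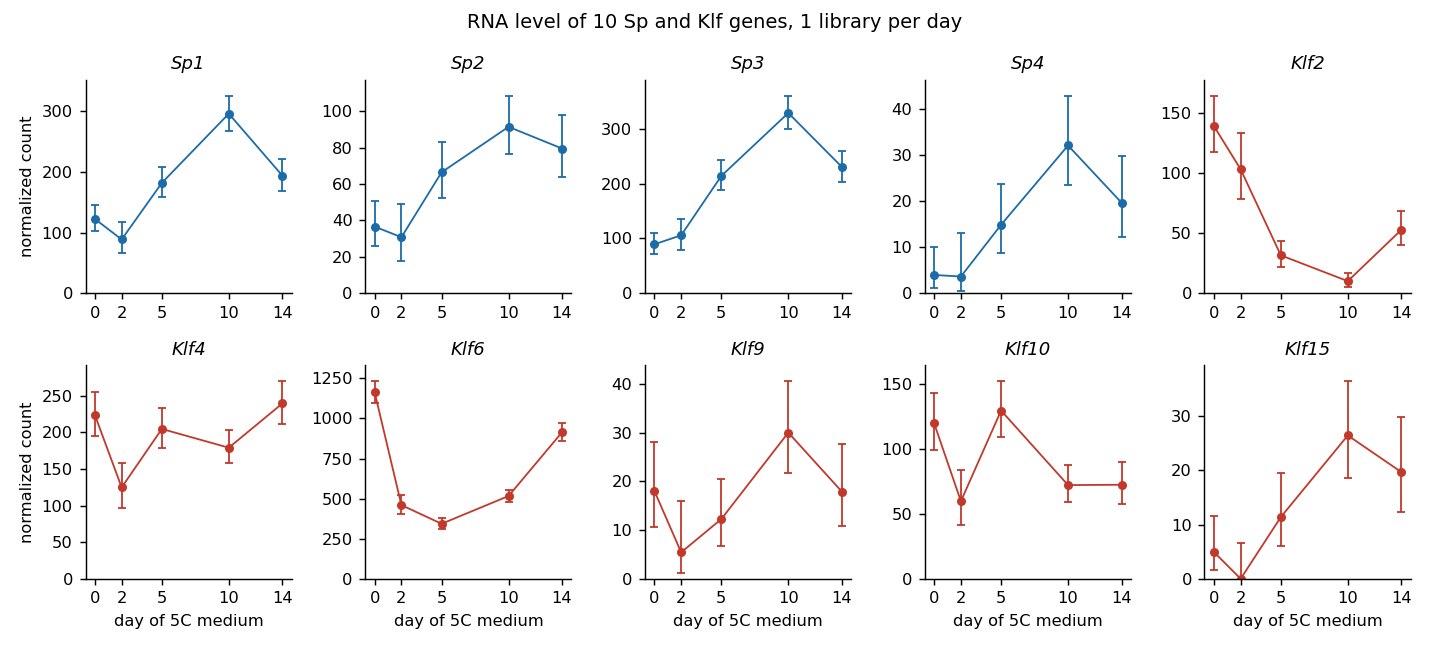
Normalized count of each member (vertical axis, from 0, with its own range per gene) against the day of 5C medium (horizontal axis), with 1 library per day and bars for the 95% Poisson interval of the count. The 4 Sp genes (blue) have their highest count on day 10, whereas among the Klf genes (red) Klf2 is lowest on day 10 at 10.0 normalized counts and Klf6 is lowest on day 5 at 343 normalized counts.

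Sp1 is the founding member of the family and an activator of many housekeeping promoters (chr15:102406143-102436404, plus strand). It had 122, 88.6, 182, 296 and 194 normalized counts from day 0 to day 14. The day 10 library was the highest and the day 2 library the lowest. The log2 change on day 10 was 1.27 (0.98 to 1.57), and that on day 14 was 0.66 (0.34 to 0.99), within 2-fold. From day 10 to day 14 Sp1 changed by -0.61 (-0.86 to -0.37) on the log2 scale. Sp1 is also the longest member, with a mean length of 7740 bases, and the median of the 10% longest genes was 1.04 on day 10. Relative to that median Sp1 changed by 0.22, so its rise was close to that of other genes as long.

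Sp3 binds the same GC boxes as Sp1 and can activate or repress (chr2:72936427-72980446, minus strand). Its normalized counts on the 5 days were 89.3, 106, 214, 330 and 231. The libraries of days 5, 10 and 14 were all over 2-fold above that of day 0. On day 5 its log2 change was 1.25 (0.91 to 1.63), by day 10 it had reached 1.87 (1.56 to 2.23) and in the last library it was 1.36 (1.02 to 1.74). The interval lay wholly above 2-fold on days 10 and 14. Relative to genes of like length the day 10 change was 1.25, while those of days 5 and 14 were within 2-fold, at 0.94 and 0.95. Sp3 overlaps Sp3os on the other strand, which had 14.4 to 23.8 expected counts, and whether strand was used in counting is not given in the sources used here, so reads of the pair cannot be told apart where they overlap.

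Sp2 is a family member that sits at many housekeeping promoters and binds GC boxes weakly (chr11:96953341-96982959, minus strand). It was measured at 36.6, 30.8, 66.5, 91.5 and 79.5 normalized counts. The days fell into a low pair (days 0 and 2) and 3 higher libraries. Its day 10 log2 change was 1.30 (0.78 to 1.89), that of day 14 was 1.10 (0.55 to 1.71), and both intervals reached below 2-fold. Relative to genes of like length Sp2 was within 2-fold on both days, at 0.84 and 0.82. Sp2 overlaps D030028A08Rik on the other strand, which had 1 to 13.3 expected counts and was likewise higher on days 5, 10 and 14.

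Sp4 is the member best known from neurons (chr12:118234933-118301440, minus strand). It had few reads, with 4, 2, 17, 45 and 22 expected counts, or 3.96, 3.62, 14.9, 32.1 and 19.7 normalized counts. Days 0 and 2 were near the smallest count that can be told from 0 (3 counts), and the libraries of days 5, 10 and 14 were all higher. The log2 change of 2.74 (1.57 to 4.96) on day 10 was the largest rise of any member, with an interval wholly above 2-fold. Relative to genes of like length it was 1.70. Of the neuron markers, Rbfox3 was at 0 in every library, and the summed level of the 10 markers was 670 normalized counts on day 0 and between 318 and 413 on the later days, with 6 of the 10 passing the filter on low counts and on day 10, 4 of these 6 over 2-fold above day 0 and 2 over 2-fold below.

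Klf2 is known for keeping endothelial cells and T cells quiescent (chr8:72319033-72321656, plus strand). Its normalized counts were 139, 103, 31.5, 10.0 and 52.7 over the 5 days. It fell stepwise to day 10, where 14 expected counts remained, and the day 14 library lay between those of days 2 and 5. On day 5 the log2 change was -2.11 (-2.72 to -1.61), by day 10 it was -3.67 (-4.71 to -3.01) and in the last library it was -1.38 (-1.87 to -0.96). From day 10 to day 14 Klf2 rose by 2.29 (1.54 to 3.35) on the log2 scale, when 4.73% of all tested genes were over 2-fold above day 10 and no other member was. Over the same step 8.33% of all tested genes and 0 members were over 2-fold below day 10. Relative to genes of like length the day 10 change was -3.52. In TPM the day 14 change was -0.52, within 2-fold.

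The sum of the endothelial markers, like Klf2, was lowest on day 10 and higher again on day 14, but single markers went different ways. Their summed level was 326, 227, 74.1, 47.4 and 218 normalized counts on the 5 days, and 5 of the 10 markers passed the filter on low counts. Of these 5, 3 were over 2-fold above day 0 and 1 was below on day 2, when the interval of Klf2 included no change. On day 10, 3 were over 2-fold below day 0 and 1 was above. The defining markers Pecam1 and Cdh5 had at most 4.76 and 5.43 normalized counts in any library, and Kdr had 236 on day 0, 3.62 on day 2 and at most 6.43 later. The day 14 sum was mostly Egfl7, at 204 normalized counts. The part of such cells in the level of Klf2 was not tested.

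Klf6 is induced by injury and growth factors in many cells, and it was the most abundant member (chr13:5861482-5870394, plus strand). It had 1164, 460, 343, 516 and 914 normalized counts. Day 0 was the highest library, day 5 the lowest, and day 14 came back close to day 0. On day 2 the log2 change was -1.34 (-1.54 to -1.14), by day 5 it was -1.76 (-1.93 to -1.60) and on day 10 it stood at -1.17 (-1.31 to -1.04). The day 14 change of -0.35 (-0.47 to -0.23) turned to 0.53 in TPM, where the day 10 change was -0.003, within 2-fold. The first 3 intervals lay wholly below 2-fold. Relative to genes of like length the fall on day 10 was larger, at -1.96.

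Klf4, known from pluripotency and the skin barrier, changed little (chr4:55527143-55532466, minus strand). Its normalized counts were 224, 125, 205, 179 and 240. The day 2 library was the low one and the others lay close together. No day was over 2-fold from day 0, and the log2 change on day 2 was -0.84 (-1.25 to -0.45). On days 5 and 10 its changes of -0.13 and -0.32 turned positive in TPM, and its change of 0.10 on day 14 turned negative relative to genes of like length.

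Klf10, first found as a gene that TGF-beta induces early, had 120, 59.7, 130, 72.1 and 72.4 normalized counts (chr15:38291463-38300706, minus strand). Days 0 and 5 were high, and days 2, 10 and 14 were low. Its log2 change on day 2, -0.99 (-1.61 to -0.44), lay just inside 2-fold. On days 10 and 14 it was -0.72 with intervals of -1.13 to -0.34 and -1.15 to -0.31, positive in TPM at 0.43 and 0.15.

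Klf9 is a repressor that glucocorticoids and thyroid hormone induce (chr19:23141226-23168134, plus strand). It had 18.2, 3, 14, 42 and 20 expected counts, or 18.0, 5.43, 12.3, 30.0 and 17.9 normalized counts. Day 10 was the highest library and day 2 the lowest. The log2 change on day 2 was -1.57 (-4.12 to 0.06), on 3 counts, and that on day 10 was 0.70 (-0.08 to 1.64). Every interval of Klf9 included no change, so no difference from day 0 was detectable at this depth.

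Klf15 acts in glucose and amino acid metabolism and in fat cell formation (chr6:90462576-90475238, plus strand). It had 5, 0, 13, 37 and 22 expected counts, or 4.95, 0, 11.4, 26.4 and 19.7 normalized counts. The libraries of days 10 and 14 were above those of days 0 and 2. On day 5 its log2 change was 1.06 (-0.38 to 3.04), by day 10 it was 2.20 (1.07 to 4.12) and in the last library 1.80 (0.55 to 3.75). No fold is given for day 2, since 0 counts there allow up to 3 counts and day 0 had 5 counts in a deeper library. Adipocyte markers rose over the same days, with sums of 233, 403, 999, 3253 and 4706 normalized counts, and 7 of the 9 tested were over 2-fold above day 0 on day 10. Their defining markers Adipoq and Plin1 were at 0 on days 0 and 2. The part of such cells in the level of Klf15 was not tested.

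**Figure D2:**
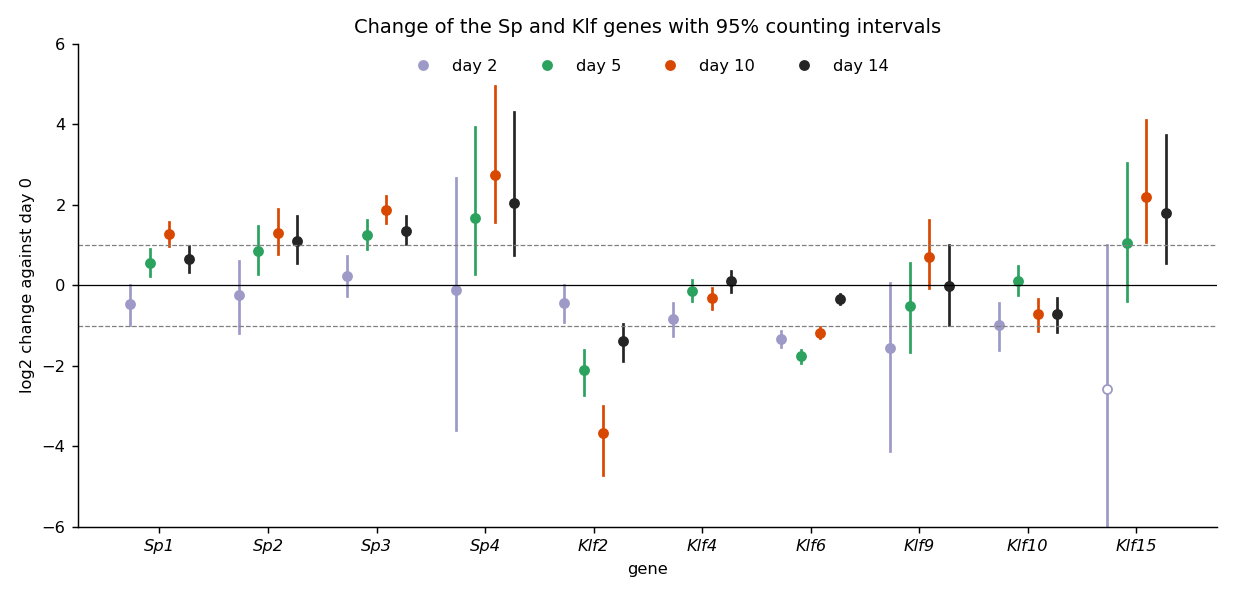
Log2 change against day 0 (vertical axis) of each member on days 2, 5, 10 and 14 (colours), with bars for the exact 95% interval and dashed lines at 2-fold. On day 10 the 4 Sp genes lie between 1.27 and 2.74 and Klf2 lies at -3.67, and the open point of Klf15 on day 2 stands for 0 counts, with a value set by the pseudocount and a bar that runs off the axis.

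An interval wholly above day 0 was found for 0 members on day 2 (22.9% of all tested genes) and 4 on day 5 (29.5%). It was found for 5 members by day 10 (38.8%) and for 5 in the last library (34.4%). All 4 Sp genes were among them on each of the last 3 days, with Klf15 as the fifth on days 10 and 14. An interval wholly below day 0 was found for 3 members on day 2 (25.1%) and 2 on day 5 (29.8%). There were 4 such members by day 10 (34.6%) and 3 in the last library (32.8%), all of them Klf genes. Klf6 was among them on all 4 days.

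The counts of members past 2-fold were read against those of all 13346 tested genes. On day 2, 0 members were over 2-fold above day 0 (15.2% of all tested genes) and 3 were below (13.1% of all tested genes), namely Klf6, Klf9 and Klf15, of which Klf9 and Klf15 rested on 3 and 0 counts. On day 5, 3 were above (20.2%) and 2 below (13.6%). On day 10, 5 of the 10 were above (28.7%) and 2 below (22.3%). On day 14, 4 were above (24.5%) and 1 below (19.9%), so with 10 members the counts of both directions on day 14 differed from the share of all genes by at most 2 genes. The median log2 change of the 10 members was -0.65, 0.34, 0.99 and 0.38 on the 4 later days, where that of all tested genes was -0.03, 0.05, 0.14 and 0.07. The members' median depended on the processing, since relative to genes of like length it was 0.057, 0.24 and -0.042 on days 5, 10 and 14. Over the 7 members that reached 50 expected counts it was -0.32 on day 10. The day 10 median hid a split, at 1.58 over the 4 Sp genes and -0.52 over the 6 Klf genes, and in TPM 4 rather than 2 of the 6 Klf genes were above day 0 on that day. Of the 10 members 6 were highest on day 10, the 4 Sp genes with Klf9 and Klf15, against 26.4% of all tested genes. For Sp2, Sp4, Klf9 and Klf15 the interval from day 10 to day 14 included no change. Above day 0 on days 5, 10 and 14 alike were 5 members, against 40.4%. Below day 0 on all 4 later days were Klf2 and Klf6, against 23.8%.

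From day 2 to day 5, 6 members had an interval wholly above day 2 (26.8% of all tested genes) and 2 had one wholly below (24.9%). Sp1 rose by 1.03 (0.58 to 1.52), Sp2 by 1.09 (0.34 to 1.96) and Sp3 by 1.01 (0.61 to 1.47) on the log2 scale over these days. Klf10 rose by 1.10 (0.56 to 1.71) and Klf4 by 0.71 (0.32 to 1.12) over the same step, and Klf15 went from 0 to 13 expected counts. Klf2 and Klf6 went the other way, by -1.68 (-2.35 to -1.08) and -0.42 (-0.65 to -0.19). For Sp4 and Klf9 the interval of this step included no change. From day 10 to day 14 Sp1 and Sp3 fell, the latter by 0.51 (-0.74 to -0.29), while Klf2, Klf4 and Klf6 rose. These were 2 members with an interval wholly below day 10 (21.6% of all tested genes) and 3 with one wholly above (24.9%). Over that last step Klf6 changed by 0.82 (0.69 to 0.96) and Klf4 by 0.42 (0.16 to 0.67).

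Gene length went with the change of all genes, which bears on the long Sp genes. With the tested genes cut into 10 groups by length, the median log2 change on day 10 ran from -1.47 in the shortest group to 1.04 in the longest. The range on day 2 was smaller and opposite, from 0.22 to -0.16. Sp1 and Sp4 were in the longest group, and Klf2 was in the fourth. Measured from the median of their own group, the 4 Sp genes were at 0.22, 0.84, 1.25 and 1.70 on day 10 (Sp1, Sp2, Sp3 and Sp4) and Klf15 was at 2.10. Klf10, within 2-fold without this step, was at -1.18. What lay behind the relation to length was not tested.

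**Figure D3:**
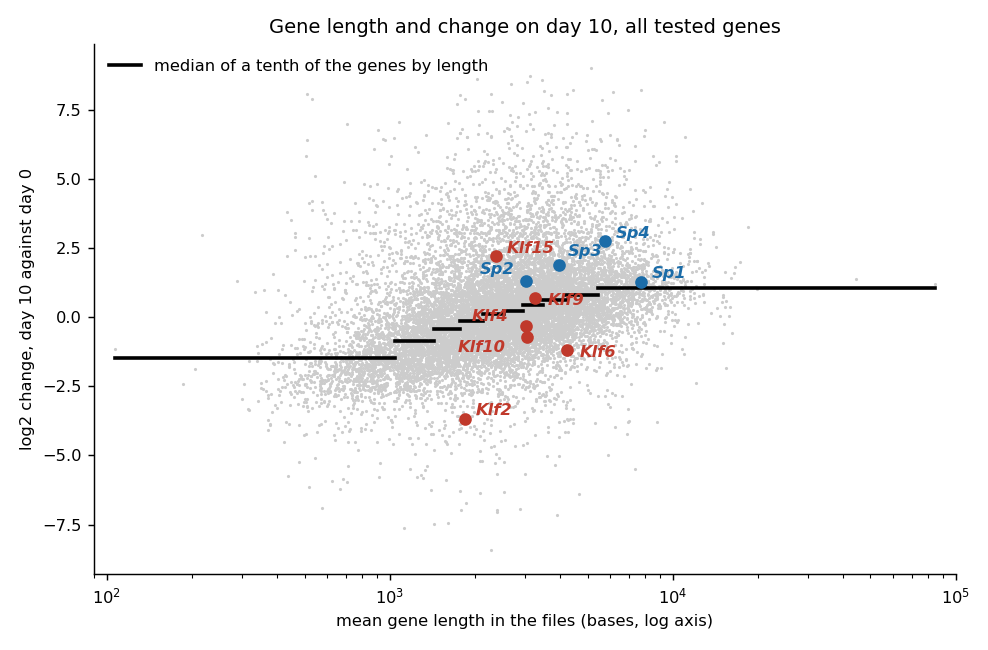
Log2 change from day 0 to day 10 (vertical axis) against mean gene length in bases (horizontal log axis) for the 13346 tested genes (grey), with the median of each of the 10 length groups (black) and the members in colour (Sp blue, Klf red). The medians climb from -1.47 to 1.04, Sp1 lies close to the line of its group and Sp4, Klf15, Klf2 and Klf6 lie away from theirs.

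Levels of different genes were compared within a library in TPM (transcript abundance divided by gene length and scaled to the same total in each library). Klf6 stood first in every library, at 97.0, 31.9, 46.8, 96.8 and 140 TPM, and its interval was apart from the next gene each time. On day 0 Klf2 (26.6 TPM) and Klf4 (26.0 TPM) followed and did not differ beyond counting error, and Klf10 (13.9 TPM) stood above Sp3 (7.51 TPM), Sp1 (5.54 TPM) and Sp2 (4.25 TPM). Sp1 and Sp2 did not differ beyond counting error on days 0, 2, 5 and 14. Klf9, Klf15 and Sp4 made up the low end on day 0 at 1.94, 0.74 and 0.24 TPM, and no neighbours among them were apart.

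By day 10 the order had changed. Sp3 was second at 68.4 TPM, then came Klf4 at 46.8 TPM, and Sp1 and Sp2 followed at 30.5 and 23.9 TPM. Klf2 was last at 4.29 TPM, not apart from Sp4 at 4.40 TPM. On day 14 Klf2 (18.5 TPM), Sp2 (16.8 TPM), Sp1 (16.1 TPM) and Klf10 (15.4 TPM) stood in a row in which no neighbours were apart. The 4 Sp genes made up 9.55% of the summed TPM of the 10 members on day 0, then 17.2%, 32.0%, 41.0% and 24.5% on days 2, 5, 10 and 14. This share compares members within a library, so it does not depend on the scaling between libraries. It was not adjusted for the relation of change to gene length given above, which can move a share between days.

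**Figure D4:**
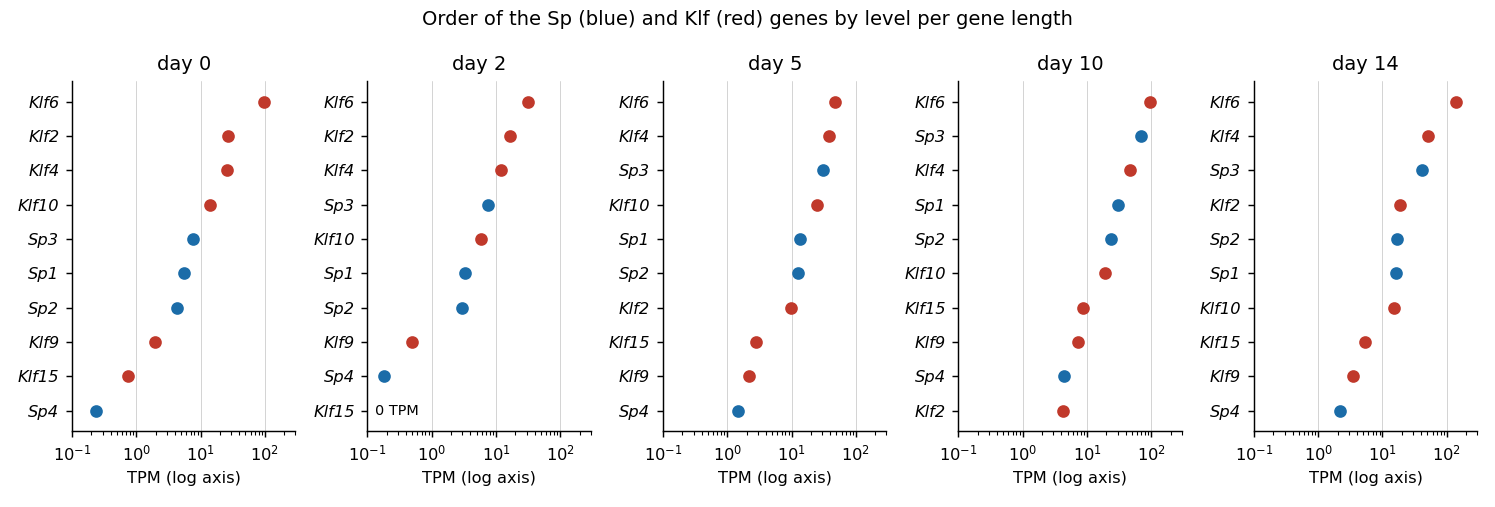
TPM (horizontal log axis) of the members in each library, ordered from highest to lowest, with Sp genes in blue and Klf genes in red; 1 point is 1 gene in 1 library. Klf6 is first on every day, Klf2 goes from second on days 0 and 2 to last on day 10, and Klf15 on day 2 is marked as 0 TPM.

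For each member the gene with the most similar changes over the 4 later days was sought among the 8273 genes that reached 100 expected counts in any library, by the root mean square difference of the log2 changes. These were Ubr3 for Sp1 (0.06), Hipk1 for Sp2 (0.08), Etnk1 for Sp3 (0.11) and Klhl24 for Sp4 (0.12). For the Klf genes they were Gnas for Klf4 (0.05), Dnajb5 for Klf10 (0.08), Ppp1r12b for Klf9 (0.11), Prkab2 for Klf6 (0.16), Zfp146 for Klf15 (0.23) and Fxyd5 for Klf2 (0.36). Klf2 therefore had the least similar best match. The match for Klf15 used its day 2 change, a value set by the pseudocount at 0 counts. Among the members themselves the closest were Sp1 and Sp2 (0.28), and each Sp gene was nearest to another Sp gene. The nearest member to Klf2 was Klf6, far off at 1.44.

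The rest of the family was mostly low. Of the 16 other Sp and Klf genes 8 passed the filter on low counts, all of them Klf genes, and Sp8 and Klf17 had 0 counts in every library. On day 10, 4 of these 8 were over 2-fold above day 0 and 0 below, with a list median of 1.04 against 0.14 over all tested genes. On day 14, 2 were above and 1 below. Klf14, an imprinted gene tied to fat metabolism, had 0, 0, 6, 19 and 26 expected counts, and no fold is given against a day 0 library at 0. The lower limit of its log2 ratio to day 0 was 1.75 on day 10 and 2.57 on day 14. Klf11, the closest relative of Klf10, had a day 10 log2 change of 2.19 (1.54 to 3.07) and a day 14 one of 1.99 (1.31 to 2.88), both over 2-fold above day 0 where Klf10 was below. Klf3, a repressor that recruits CtBP, was at 2.34 (1.78 to 3.05) on day 10 and by day 14 at 0.94 (0.25 to 1.71). Klf5 was at -1.37 (-2.69 to -0.36) on day 14.

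All 14 cofactors of Sp and Klf factors passed the filter, and on day 14, 2 were over 2-fold above day 0 and 0 below. These were the acetyltransferase Kat2b at 2.26 (1.65 to 3.04) and the TFIID subunit Taf4 at 1.95 (1.31 to 2.73). The corepressor Sin3a (0.99) and the acetyltransferase Ep300 (0.87) followed within 2-fold. The list median was -0.03.

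Genes tied to single members were counted next to them. Of 10 genes with GC boxes known to need Sp1, 0 were over 2-fold above day 0 (24.5% of all tested genes) and 5 below (19.9%) on day 14, when Sp1 itself was at 0.66, and in TPM these counts turned to 5 above and 2 below. Among those below were the nucleotide salvage genes Aprt at -2.92 (-3.10 to -2.75) and Tk1 at -2.64 (-3.53 to -1.99), and the cell cycle inhibitor Cdkn1a at -1.87 (-1.96 to -1.78). Also counted below was Tert, on 3 expected counts on day 0 and 1 on day 14, with an interval of -7.45 to 1.91 that included no change. On day 10, the peak of Sp1, 3 of the 10 were above and 2 below. Of those above, Vegfa lay at the threshold, at 1.00. Tert was again counted on few reads, 3 on day 0 and 14 on day 10, with an interval of -0.09 to 4.19 that included no change.

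The vascular list of Klf2 and Klf4 targets holds Klf2 itself, and 4 of its 5 genes passed the filter. On day 14 Klf2 and Cdkn1a were over 2-fold below day 0, while Thbd (0.80) and S1pr1 (-0.22) were within 2-fold. Nos3 had at most 2.01 expected counts. On day 10, when Klf2 was lowest, the anticoagulant receptor Thbd was at 1.20 (0.98 to 1.43), over 2-fold above day 0.

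Of 6 metabolic targets of Klf15, 4 passed the filter and 0 were over 2-fold above or below day 0 on days 10 and 14. The largest changes on day 14 were 0.61 for the alanine aminotransferase Gpt and 0.36 for the glucose transporter Slc2a4, and both intervals included no change. Prodh and Bcat2 were at -0.04 and 0.02.

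For Klf9, which glucocorticoids induce, 7 of 9 genes of the glucocorticoid receptor list were tested, and on day 14, 0 were over 2-fold above day 0 and 2 below. These were Errfi1 at -1.43 (-1.74 to -1.15) and the clock gene Per1 at -1.35 (-1.72 to -1.02), and Sgk1 (-0.96) and Dusp1 (0.84) were within 2-fold. In TPM the counts on day 14 were 3 above and 0 below.

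For Klf10, an early TGF-beta gene, 5 of 6 genes of the early TGF-beta list were tested and 4 were over 2-fold below day 0 on days 10 and 14. On day 14 the inhibitory Smad7 was at -3.55 (-4.19 to -3.06), Skil at -2.26 (-2.80 to -1.81) and Tgif1 at -1.17 (-1.48 to -0.88). Klf10 was within 2-fold on both days. Cebpd and Ctgf, listed with the glucocorticoid and TGF-beta genes, were not analysed here.

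Klf2, Klf4, Klf6 and Klf10 are themselves known as early genes of the serum response. Of 12 other serum immediate-early genes, 9 were over 2-fold above day 0 and 1 below on day 14, with a list median of 2.25 against 0.07 over all tested genes. Fos was at 5.08 (4.84 to 5.35), Atf3 at 4.66 (4.36 to 5.02), Fosb at 4.47 (4.06 to 4.99) and Egr3, with 1 count on day 0, at 3.61 (1.95 to 9.91). The 4 Klf genes were at -1.38 to 0.10 on that day. On day 2 the immediate-early list held 2 genes above and 3 below 2-fold, with a median of -0.58.

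**Figure D5:**
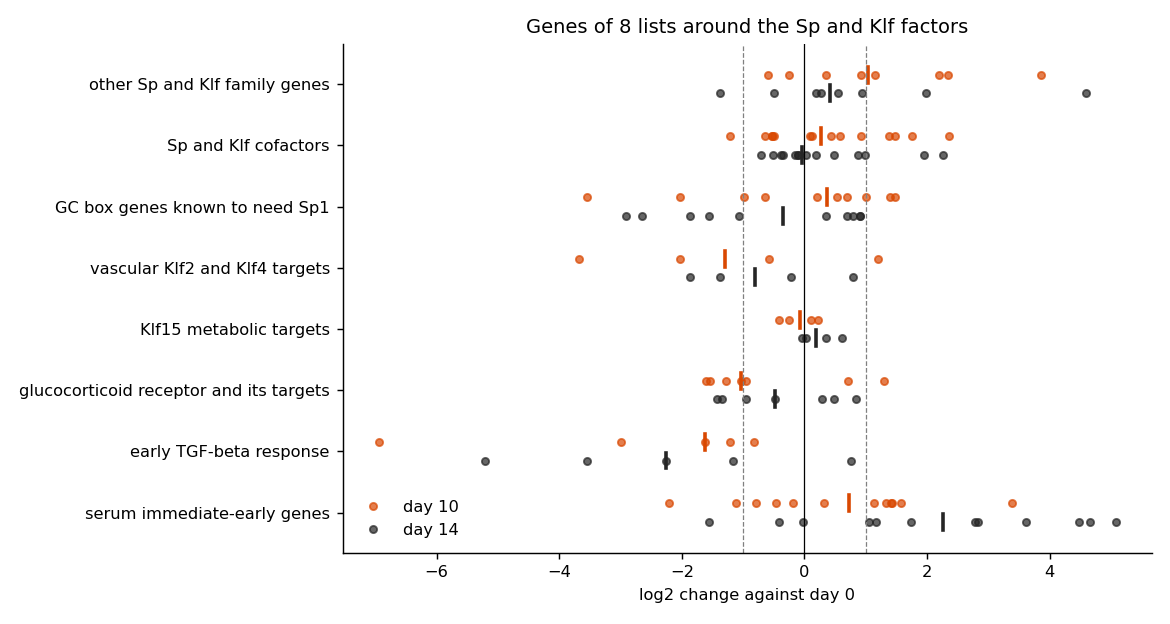
Log2 change against day 0 (horizontal axis) of the tested genes of 8 lists (rows) on day 10 (orange) and day 14 (black), with a bar at each list's median and dashed lines at 2-fold. The immediate-early genes spread up to 5.08 on day 14, and 4 of the 5 tested early TGF-beta genes lie past 2-fold below on both days.

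Markers of other cell types changed over the same days as the members. Macrophage markers, led by Lyz2, summed to 285, 2104, 3604, 1892 and 1369 normalized counts, with 10 of 10 over 2-fold above day 0 on day 2, when Klf4, Klf6 and Klf10 had intervals wholly below day 0. Among these 10, Ptprc rested on 0 expected counts on day 0 and 1 on day 2. On days 5, 10 and 14, 9, 8 and 7 markers were above and 1 was below each time. The marker below was Itgam, at -1.76, -3.01 and -2.94. Markers of Schwann cells and neural crest glia, led by Ngfr, summed to 160, 230, 1280, 8296 and 11247 normalized counts, with 10 of 10 over 2-fold above day 0 on days 10 and 14. Epithelial markers, of which 3 of 10 were tested, summed to 390 on day 0, 476 on day 2 and 18.8 on day 14. On day 2, 2 of the 3 were over 2-fold above day 0 and 1 below, and on day 14 all 3 were below. Ocln and Grhl2 were at 0 in every library. Skeletal muscle markers, of which 5 of 10 were tested, summed to 1270 on day 0 and 52.9 on day 14, with Myf5 at 0 in every library. The part of these cells in the levels of the Sp and Klf genes was not tested.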

How the data were processed

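RNA of MEFs in serum medium (day 0) and after 2, 5, 10 or 14 days in 5C medium gave 1 library each, grouped by the day in the labels. The deposited table of each library held gene-level expected counts (RSEM's estimated counts, not scaled for library size), with the authors' TPM values (divided by gene length and scaled to 1000000 per library) and FPKM values beside them. The deposited expected counts were used for changes, the deposited TPM for levels and as an alternative, and the deposited FPKM for no result. The submitters' processing notes name Bowtie, RSEM and mm10. Their versions, the annotation and any filter are not given in the sources used here.

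Symbols and coordinates came from GENCODE M21 (GRCm38), in which 27247 of 27729 identifiers were found. The other 482 took 0.359% of the counts. Effective library sizes came from TMM on counts rounded to whole numbers (edgeR 4.0.16, R 4.3.3). Normalized counts were expected counts divided by them and scaled to their geometric mean over the 5 libraries. Log2 changes used a pseudocount of 1. A gene was tested, against a threshold of 2-fold, if it reached 10 expected counts in any library. Intervals were exact 95% Clopper-Pearson intervals of rounded counts without a pseudocount, and Poisson intervals for levels. A floor of 3 counts came to 0.771 to 1.33 per 1000000 counts. Promoter windows were those of RefSeq on GRCm38, and for a gene with several windows the one nearest the GENCODE start was used. The zinc fingers of the proteins were not analysed here.

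The members and lists were chosen with earlier results of these data known. Named were every member, the 4 genes of each list that changed most on day 14, for each member the most similar gene among those that reached 100 expected counts in any library, and of the marker lists the markers at 0 and the most abundant one. The values of 2 genes that this rule names are not reported here. Other genes named were chosen after their values were seen, namely the endothelial and adipocyte markers, Itgam, Ptprc, Tert, Vegfa, Sp8, Klf17 and Nos3. Alternatives were DESeq2's size factors (1.42.0), TPM, changes relative to genes of like length, a pseudocount of 5, no filter and a filter of 50 expected counts. TPM minus the median of all tested genes was added after seeing the data. The computations were tested on simulated data with Python 3.11.15 (scipy 1.17.1, numpy 2.4.6, matplotlib 3.10.9, pandas 2.3.3).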

Additional observations from a re-analysis of the deposited data

How the results depend on the processing

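The 20 values of single members over 2-fold from day 0 kept their sign under every alternative, and 20 stayed over 2-fold with DESeq2's size factors, 18 in TPM, 14 relative to genes of like length, 18 with a pseudocount of 5 and 20 in TPM minus the median of all tested genes. Those no longer over 2-fold in TPM were Klf6 on day 10, at -0.003 and so near no change, and Klf2 on day 14, at -0.52. Of the 20 values within 2-fold, 8 changed sign in TPM and 3 relative to genes of like length. In TPM the median of all tested genes moved to -0.25, 0.72, 1.25 and 0.90 on days 2, 5, 10 and 14, so counts in TPM hold this shift. In TPM, 5 members were below 2-fold on day 2, 5 above on day 5, 1 below on day 10 and 0 below on day 14, and the members' medians were 1.04, 2.15 and 1.25 on days 5, 10 and 14. Of all tested genes, 2737 were then below on day 2, 5204 above and 655 below on day 5, 7560 above and 979 below on day 10, and 6271 above and 1108 below on day 14. On day 14 in TPM the lists gave 6 above and 0 below for the other family genes, 6 above for the cofactors, 5 above and 2 below for the GC box genes, 1 above and 0 below for the vascular list, 2 above for the Klf15 targets, 3 above and 0 below for the glucocorticoid list, 1 above for the early TGF-beta list and 0 below for the immediate-early genes. Relative to genes of like length, 1, 3 and 2 members were above on days 5, 10 and 14 and 2 below on day 14, and the members' median was 0.24 on day 10 and -0.042, on the other side of 0, on day 14. With no filter, 3529 of all genes were above on day 2, and on day 14 3 other family genes and 1 Klf15 target were below. With a filter of 50 expected counts, which removes Sp4, Klf9 and Klf15, 1 member was below on day 2, and 1, 3 and 2 were above on days 5, 10 and 14. The members' median on day 10 was then -0.32, on the other side of 0. That filter left 1203 of all genes above on day 2 and 1721 on day 5, and 1 other family gene above and 0 below on day 14. In TPM minus the median of all tested genes, 1 cofactor was below on day 14. Apart from fewer genes under the filter, the causes were not tested. The order of the members per length was the same for all 10 with counts divided by length. No paired analysis was possible because each day had 1 library, and no library could be left out in turn. Depth limits Sp4, Klf9 and Klf15, whose counts were at or below 5 in 1 or more libraries.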
